A study of Caenorhabditis elegans with 2 samples.

Results

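The genes for the proteins of the cytosolic ribosome were examined for binding of SOX-2 in late embryos of Caenorhabditis elegans. They were taken as the protein-coding genes whose name begins rpl- (large subunit) or rps- (small subunit), which gave 78 of the 19973 nuclear protein-coding genes of the Ensembl release 115 annotation, 47 of the large and 31 of the small subunit. The choice used names alone, so ribosomal proteins with other names (rla-0, ubl-1 and the like) are not members, and rpl-24.2, a relative of a yeast factor that helps assemble the large subunit, is one. SOX-2 was mapped by chromatin immunoprecipitation followed by sequencing (ChIP-seq) in whole embryos of strain RW12244, in which CRISPR inserted a tag written sox-2::TY1::EGFP::3xFLAG at the endogenous gene on X. Embryos came from egg bleaching, their labelled age was 3.5 hours, and an antibody against GFP pulled down the fusion protein. There is 1 group of 2 biological replicates and no second condition, so members are set beside all protein-coding genes of the same lists. No embryos without the tag were analysed here, nor the control that the labels name. In whole embryos, strong binding in few cells and weak binding in many cannot be told apart.

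Each ribosome joins a small subunit, which reads the messenger RNA, with a large subunit, which forms the peptide bond and holds the exit tunnel of the new chain. Each subunit is made of ribosomal RNA and a set of proteins needed in matched amounts, and their genes are among the most strongly transcribed of a growing embryo. SOX-2 is a transcription factor that binds DNA through an HMG box, and SOX factors of this kind are known for their part in neural development. Many worm transcripts are joined to a spliced leader soon after transcription, so an annotated 5′ end can be a splice acceptor that lies downstream of the start of transcription.

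A SOX-2 summit, the highest point of a peak, lay within 2000 bp of an annotated 5′ end at most ribosomal protein genes. In the pooled ranked list, made by the authors from both replicates, 54 of the 78 members (69.2%) had one, against 30.5% of all protein-coding genes. The irreproducible discovery rate (IDR) of a peak estimates the share of irreproducible peaks among those at least as consistent between repeat rankings. It is judged from ranks and not from position. The thresholded list keeps 677 of these peaks, at an IDR of at most 1%, but not every ranked peak within that limit. In that list 15 of 78 members (19.2%) had a summit, against 3.55% of all genes. Those 15 members shared 14 peaks, because rpl-36 and rps-14 lie head to head on either side of the same one. Among genes that had a ranked summit at all, 27.8% of the 54 members and 11.7% of the 6085 genes had a thresholded one.

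The shares of both subunits were alike. Thresholded summits lay at 9 of 47 large subunit genes (19.1%) and at 6 of 31 small subunit genes (19.4%), and ranked summits at 68.1% of the large and 71.0% of the small subunit genes. The conservative thresholded list, a further list that the authors made from both replicates, also held 15 members (10 large, 5 small) against 3.59% of all genes, and 14 of them were the same genes. The replicates' own thresholded lists held fewer. Replicate 1 had a summit at 10 members (12.8%, 7 large and 3 small) against 2.95% of all genes, and replicate 2 at 14 members (17.9%, 8 large and 6 small) against 2.98%. The member share was above the share of all genes in each of the 4 thresholded lists.

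**Figure D1:**
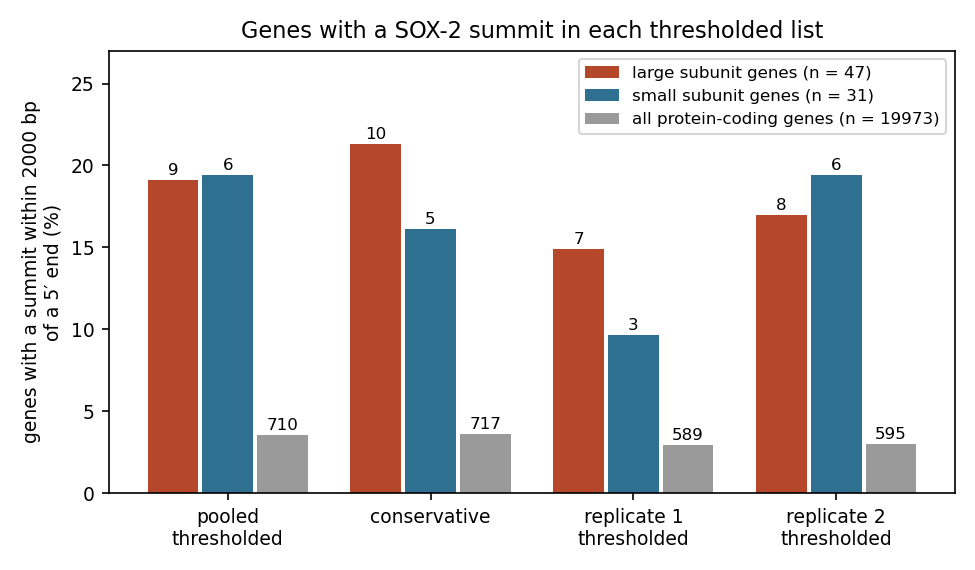
Percent of genes (y axis) with a summit within 2000 bp of a 5′ end in each of the 4 thresholded lists (x axis), for large subunit genes, small subunit genes and all protein-coding genes. Numbers over the bars are counts of genes. In the pooled list 9 large and 6 small subunit genes stand at 19.1% and 19.4%, against 3.55% of all genes.

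The DNA under the strongest of these summits is shown because it lies at the centre of the regions pulled down. Each line gives the summit base with 50 bases on either side, from the ce11 build, 5′ to 3′ on the strand of the first gene named, with the 1-based coordinates. These are the members with the highest pooled signal whose sequence is printed here, and rps-15, whose signal lies between those of rps-24 and rpl-36, is not shown. The rpl-20, rpl-15 and rpl-12 lines are on the minus strand and the others on the plus strand. Capitals mark CATTGT, a form of the core that SOX proteins bind, and 5 further short words on either strand, picked after these sequences had been seen. The words are CTGCGTA (at rpl-12, rps-24 and rpl-36), GCGCTC (at rpl-12 and rps-28), GCGTGTTT (at rpl-3, rpl-35 and rpl-15), GTGTATG (at rpl-20 and rpl-15) and TACGGT (at rpl-3, rpl-20 and rpl-15).
rpl-3 III:3867526-3867626: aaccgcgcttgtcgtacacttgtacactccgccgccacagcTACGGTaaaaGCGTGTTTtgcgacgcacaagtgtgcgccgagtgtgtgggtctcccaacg
rpl-20 IV:4750013-4750113: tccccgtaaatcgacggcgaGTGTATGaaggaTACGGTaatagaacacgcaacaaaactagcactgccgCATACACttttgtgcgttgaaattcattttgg
rpl-35 III:7854672-7854772: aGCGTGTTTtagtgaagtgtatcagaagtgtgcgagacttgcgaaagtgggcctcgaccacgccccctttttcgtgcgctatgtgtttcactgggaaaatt
rpl-15 IV:654878-654978: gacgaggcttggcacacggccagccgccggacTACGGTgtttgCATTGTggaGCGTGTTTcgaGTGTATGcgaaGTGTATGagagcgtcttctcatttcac
rpl-12 IV:13240646-13240746: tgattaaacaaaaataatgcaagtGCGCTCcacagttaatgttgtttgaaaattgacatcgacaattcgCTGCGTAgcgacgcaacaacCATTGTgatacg
rps-28 IV:1659220-1659320: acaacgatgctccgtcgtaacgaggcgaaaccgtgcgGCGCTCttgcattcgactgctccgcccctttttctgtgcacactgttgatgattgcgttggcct
rps-24 IV:385520-385620: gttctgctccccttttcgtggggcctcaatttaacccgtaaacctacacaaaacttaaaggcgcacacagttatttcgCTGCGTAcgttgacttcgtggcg
rpl-36 and rps-14 III:7179771-7179871: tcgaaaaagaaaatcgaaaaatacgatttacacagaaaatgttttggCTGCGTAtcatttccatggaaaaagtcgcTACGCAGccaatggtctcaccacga

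CATTGT appears in the rpl-15 and rpl-12 lines and not in the other 6. It also lies at the rps-15 summit, which was left out. The rpl-15 line holds more of the marked words than any other line, with GTGTATG repeated on the same strand. The rpl-20 line holds GTGTATG once on each strand, and the rpl-36 line holds CTGCGTA once on each strand.

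Peak signal is a value that the authors' lists give per peak, on a scale that no source used here states. Across the 54 members with a ranked summit, the signal of the strongest one had a median of 61.6 and ran from 33.4 to 258.6, against a median of 42.8 over 6085 genes of all kinds. At the 15 members with a thresholded summit the median was 113, against 102.6 over all 710 such genes, so these members lay near the middle of the bound genes. The large subunit genes had a median of 153.6 (n = 9) and the small subunit genes 102.1 (n = 6). That gap comes from the top of the range, where the 5 highest signals were all of large subunit genes. For every one of the 15, the thresholded summit was also the strongest ranked summit.

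Of the large subunit genes, rpl-3, whose protein lies near the site of peptide bond formation, had the strongest peak. Its peak at III:3867520-3867667, with the summit 278 bp upstream of the nearest 5′ end, had a pooled signal of 258.6 and rank 53 in the ranked list. The replicate signals were 122.5 and 132.9 (127.7 ± 7.35, SD, n = 2). At rpl-20 the peak at IV:4750055-4750127 (198.2, rank 105) had replicate signals of 92.2 and 99.2 (95.7 ± 4.92). Both genes thus gave nearly the same signal in each replicate and carried an IDR of 0.001%, the floor of the values in the list. Peaks at that floor are not ordered by it. The gene rpl-35, whose protein sits at the mouth of the exit tunnel, had a peak at III:7854662-7854761 with a signal of 173.2, and 100.4 and 74.0 in replicates 1 and 2. The peak of rpl-15 at IV:654786-655069 (161.1) differed most between the replicates among the large subunit genes, at 60 and 102.0 (81.0 ± 29.7). The peak of rpl-12, which codes for a protein of the stalk base where elongation factors dock, lay at IV:13240554-13240837 (153.6) and had 92.8 and 69.7. All 5 passed the threshold in both replicates.

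The other 4 large subunit genes had weaker peaks, and none of them passed in replicate 1. The peak that rpl-36 shares with rps-14, at III:7179679-7179962, had a pooled signal of 91.1 and replicate signals of 44.8 and 43.1 (44.0 ± 1.22). It passed in neither replicate on its own, and the same was true of rpl-43 at II:14154415-14154698 (81.6, with 36 and 46.2). The genes rpl-7A at IV:4390514-4390797 (88.4, with 37.4 and 50) and rpl-24.2 at I:9669135-9669418 (84.4, with 36.6 and 50.5) passed in replicate 2 alone. The rpl-7A summit has the highest IDR of the 15, 0.874%. The rpl-24.2 summit lies in an intron of C03D6.1, and the other 14 members have theirs between protein-coding genes.

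Of the small subunit genes, rps-28 at IV:1659128-1659411 had the strongest peak (148.6, rank 195), with 62.7 and 80.8 in the replicates (71.8 ± 12.8). It was followed by rps-24 at IV:385428-385711 (124.3, with 66.1 and 60.1) and rps-15 at I:8816443-8816726 (113, with 54.8 and 57.0). These 3 passed in both replicates. The proteins of rps-24 and rps-19 are known from human inherited anaemia, and that of rps-15 lies near the site where codons are read. The gene rps-12 at III:5678991-5679274 (85.3, with 37.3 and 45.3) and rps-19 at I:9625942-9626225 (85.1, with 27.8 and 54.8) passed in replicate 2 alone. Of these 6, rps-19 differed most between the replicates (41.3 ± 19.0), and it is the member of the pooled thresholded list that the conservative list lacks. In total 8 of the 15 passed at the same summit in both replicates, 4 in replicate 2 alone, 0 in replicate 1 alone and 3 in neither.

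**Figure D2:**
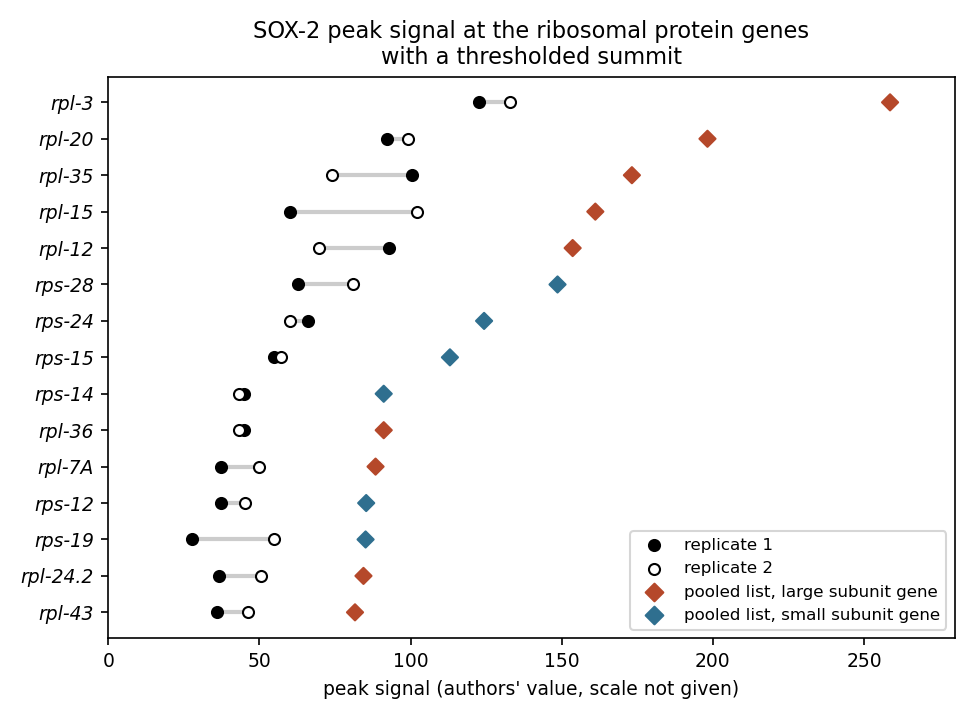
Peak signal (x axis, the authors' value) at the 15 members with a thresholded summit (y axis, ordered by pooled signal). Circles are the 2 replicates, joined by a grey bar, and diamonds the pooled list, coloured by subunit. The pooled signal runs from 81.6 at rpl-43 to 258.6 at rpl-3, and the replicate circles of rps-15, rpl-36 and rps-14 lie close together while those of rpl-15 and rps-19 lie apart.

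Member peaks with a higher signal in 1 replicate tended to have a higher one in the other. Over the 37 distinct member summits present in both replicates' ranked lists, Spearman's rho of the signals was 0.64 and Pearson's r of the log2 values 0.71, against 0.48 and 0.73 over 5082 nuclear ranked peaks. These peaks share the same 2 libraries, so the values are a description. Replicate 1 was the higher in 13 of the 37. The depth of the libraries is unknown, and no value was corrected for it.

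Of the 39 members with a ranked summit only, 6 had an IDR of at most 5%. The like share of all genes is not given here, so nothing is read from that count. By signal, rpl-27 stood first among the 39 (84.7, IDR 1.68%, replicates 48.6 and 39.1), 1965 bp downstream of its 5′ end in an untranslated exon of egl-30, the gene of a G protein alpha subunit. It was absent from the pooled thresholded list and present in the other 3 thresholded lists. The rpl-11.1 summit (83.4, IDR 1.04%), 1753 bp upstream and in an intron of T22F3.2, passed in replicate 1 alone (53.8 and 24.4). The rps-1 summit (75.2, IDR 3.03%), 248 bp upstream, passed in replicate 2 alone (26.1 and 54.3). With these, 18 of the 78 members were in at least 1 of the 4 thresholded lists and 8 in all 4. Of all 19973 genes, 937 were in at least 1 and 374 in all 4. The others of the 6 with the highest signal were rpl-31 (78.0), rps-26 (75.4) and rpl-13 (69.6), with IDR values of 61.1%, 1.06% and 55.8%. A high pooled signal therefore did not always go with a low IDR.

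The remaining 24 members, 15 large and 9 small, had no summit in the pooled ranked list. All of them except rpl-37 had one in a longer ranked list of a replicate. In name order the first are rpl-16 (strongest signals of 15.9 in replicate 1 and 29.0 in replicate 2), rpl-17 (18.1 and 14.9) and rpl-2 (13.0 and 15.4). They are followed by rpl-21 (18.3 and 23.5), rpl-23 (17.2 and 17.7) and rpl-25.1 (none in replicate 1 and 15.8 in replicate 2). A ranked summit lay at 73 members in replicate 1 (93.6%, against 63.5% of all genes) and at 74 in replicate 2 (94.9%, against 64.1%). The median of the strongest signal was 24.7 over those 73 members against 19.5 over all genes in replicate 1, and 28.8 against 18.4 in replicate 2. Of the 78 members only rpl-37 had no summit in any list, against 3812 of all 19973 genes.

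Summits at these genes lay mostly in a narrow zone upstream of the 5′ end, though many were nearer to another gene. The strongest ranked summit had a median position 293 bp upstream (quartiles 405 and 205 bp upstream, n = 54). Over all 6085 genes the median was 213 bp upstream, with quartiles 939 bp upstream and 556 bp downstream. It lay 1 to 500 bp upstream at 38 of 54 members (70.4%), against 28.1% of all genes. From 200 to 450 bp upstream lay 32 members (59.3%), against 12.9%. That zone encloses the members' own quartiles, so the height of their share in it is no independent result. Only 8 members had it at or downstream of the 5′ end, against 2161 of 6085 genes. The large subunit genes had a median of 290 bp upstream and the small subunit genes 304 bp. At 26 of the 54 members the nearest protein-coding 5′ end was the member's own, and at the rest it was another gene's. Members also more often face a gene head to head within 1000 bp (60.3%, against 18.8% of all genes). Their median length is 753.5 bp, against 2027 bp. Whether either bears on the position was not tested.

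**Figure D3:**
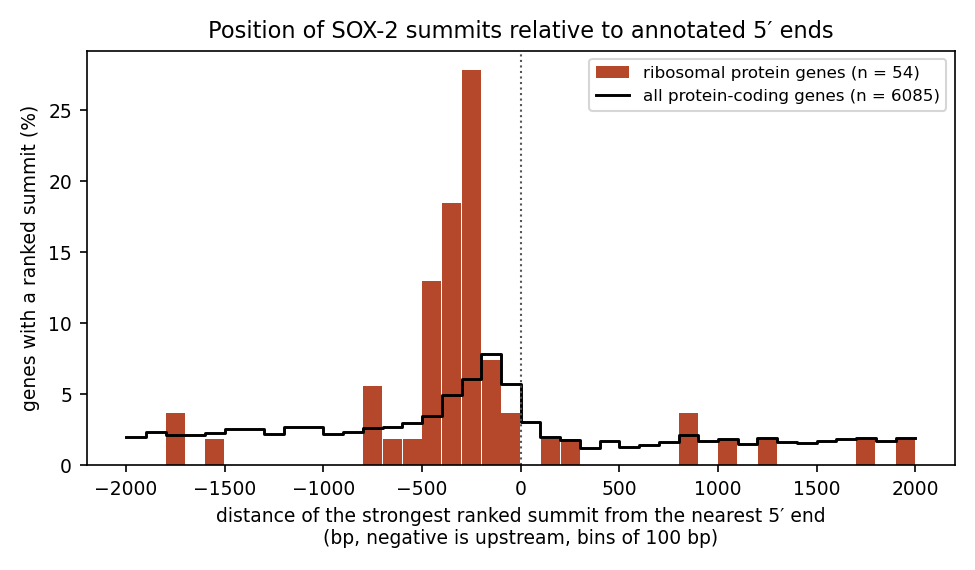
Distance of the strongest ranked summit from the nearest annotated 5′ end of the gene (x axis, bp, upstream negative, bins of 100 bp) and percent of the genes with a ranked summit (y axis). Bars are the 54 ribosomal protein genes and the line all 6085 protein-coding genes. The bars pile up between 200 and 500 bp upstream, while the line is broad.

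Thresholded summits alone gave the same picture. They lay within 500 bp upstream at 14 of 15 members (93.3%), against 269 of 710 genes (37.9%), with medians of 288 and 307.5 bp upstream. The exception is rpl-43, with its summit 737 bp upstream. The nearest were rpl-12 at 45 bp and rpl-7A at 66 bp. The plot of signal against position shows that the strongest peaks sit in the same zone as many weak ones. The member summits nearest to the edge of the 2000 bp window are those of rpl-22 at 1858 bp, rpl-11.2 at 1889 bp and rpl-27 at 1965 bp inside it, and of rpl-32 at 2021 bp, rpl-20 at 2026 bp and rpl-24.1 at 2094 bp outside it.

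**Figure D4:**
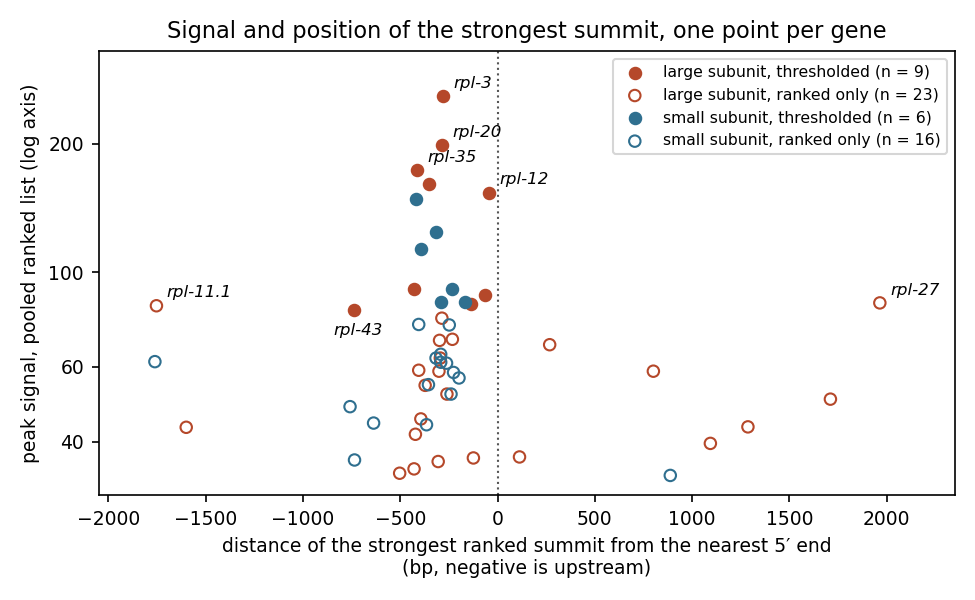
Pooled signal of the strongest ranked summit (y axis, log scale) against its distance from the nearest annotated 5′ end (x axis, bp, upstream negative), 1 point per gene. Filled points have a thresholded summit and open points a ranked summit only, coloured by subunit. Of the 15 filled points 14 lie within 500 bp upstream, and the strong summits of rpl-27 and rpl-11.1 lie far out.

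The bases before the annotated 5′ end differ between these genes and others. The letters CAG, the end of a typical splice acceptor, stand directly before the most upstream annotated 5′ end at 61 of 78 members (78.2%), against 22.1% of all genes. Among members with CAG and a ranked summit, 27 of 40 (67.5%) had it 200 to 450 bp upstream, with a median of 296 bp. Among the 14 members without CAG, 5 (35.7%) did, with a median of 229.5 bp. Over all genes with CAG the share was 18.3% and the median 301 bp, and over genes without it 10.7% and 164 bp. The median distance thus moved with CAG in the members and in all genes, and the share in the zone was higher in the members in either class. The zone encloses the members' own quartiles, so a higher member share in it is no independent result. Thresholded summits lay at 9 of the 61 members with CAG (14.8%), against 4.85% of all genes with it, and at 6 of the 17 members without CAG (35.3%), against 3.19% of all genes without it. The share was thus lower with CAG in the members and higher with CAG over all genes, a difference that was not tested.

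Ribosomal protein genes often share an upstream region with a gene on the other strand. A divergent neighbour, with its 5′ end at most 1000 bp away head to head, was present at 47 of 78 members (60.3%) and at 18.8% of all genes. A thresholded summit lay at 10 of those 47 members (21.3%), against 5.39% of all genes with such a neighbour. Of the 31 members without one it lay at 5 (16.1%), against 3.13% of all genes without one. For ranked summits the share with a neighbour was 74.5% of members, against 35.6% of all such genes. The member share was thus above that of all genes in either arrangement. The order of the members with and without a neighbour was the other way round in the remaining thresholded lists. In replicate 1 a summit lay at 5 of the 47 members with a neighbour (10.6%, against 4.48% of all such genes) and at 5 of the 31 without (16.1%, against 2.59%). In replicate 2 it lay at 8 of the 47 (17.0%, against 4.4%) and at 6 of the 31 (19.4%, against 2.65%). The conservative list gave 19.1% with a neighbour (5.6% of all such genes) and 19.4% without (3.12%).

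At all 10 the summit lay between the facing 5′ ends, and the gene it belongs to cannot be told apart. The summit was closer to the neighbour at 6 of them. At rpl-20 it lay 177 bp from Y17G9B.5 and 285 bp from rpl-20 itself. At rps-12 it lay 128 bp from ska-3, a gene of the spindle and kinetochore, and at rps-19 157 bp from hsr-9, which codes for a protein of the DNA damage response. At rpl-43 it lay 184 bp from Y48B6A.1, and at rps-15 389 bp from F36A2.9, against 392 bp from rps-15. The shared rpl-36 and rps-14 summit lay 430 bp from the 5′ end of rpl-36 and 233 bp from that of rps-14. The member was the closer at rpl-12, with lin-54, which codes for a DNA-binding subunit of the DREAM complex, 348 bp off, at rpl-15, with K11H12.8 462 bp off, and at rpl-7A, with set-21, of the SET domain family, 188 bp off. When each summit was given to its nearest protein-coding 5′ end alone, 9 of 78 members (11.5%) kept a thresholded summit, against 2.26% of all genes.

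Some members share a summit with another member, so members are not independent of each other. Besides rpl-36 and rps-14, the divergent pairs rpl-39 with rps-30 and rpl-24.1 with rps-10 each share a ranked summit, of signal 51.8 and 62.9. The neighbouring copies rpl-41.1 and rpl-41.2 share one of 58.6. The 54 members thus have 50 distinct strongest summits.

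Introns of ribosomal protein genes are a known home of small nucleolar RNAs (snoRNAs), which guide the modification of ribosomal RNA. An annotated snoRNA lay in an intron, on the same strand, at 13 of 78 members (16.7%) and at 0.656% of all genes. A thresholded summit lay at 3 of the 13 (23.1%), close to the 18.3% of all 131 snoRNA host genes. At the 65 members that host none it lay at 12 (18.5%), against 3.55% of all genes, the few hosts included. For ranked summits the shares were 61.5% of member hosts and 68.7% of all hosts. The 3 are rpl-15 (K11H12.12 and K11H12.13), rpl-7A (Y24D9A.9 and Y24D9A.10) and rps-12 (F54E7.10 and F54E7.11). Their summits lay upstream of the host gene, 567, 348 and 245 bp from the nearest snoRNA. The thresholded list of replicate 1 held 1 of the 13 (7.69%), below the 15.3% of all snoRNA hosts in that list. The list of replicate 2 held 3 of the 13 (23.1%), against 15.3% of all hosts.

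The share with a thresholded summit varied between chromosomes, over few members each. On IV such summits lay at 6 of 17 members (35.3%, against 3.17% of all genes there) and on III at 5 of 18 (27.8%, against 4.89%). On I, which has the most members, they lay at 3 of 23 (13.0%, against 4.1%), and on II at 1 of 10 (10%, against 3.71%). None of the 8 members on V or the 2 on X had one, against 1.94% and 4.91% of all genes. For ranked summits the order differed, with 82.6% of the members on I and 64.7% of those on IV. All genes there had the same order, with 37.8% on I and 28.3% on IV.

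For none of the 15 thresholded member summits was a transfer RNA (tRNA) gene found in the 500 bp on either side, the nearest being 3253 bp away at rpl-15. Of the 646 other nuclear thresholded peaks 118 (18.3%) had one there, and of the 7730 nuclear ranked peaks with an IDR above 1%, 170 (2.20%). For the 54 strongest ranked summits it was found at 1, that of rpl-11.1. Sequence copies can also blur a position. Within 100 bp of the summit, 13 of the 15 had no 36-base stretch that recurs elsewhere in the genome, while 27.7% of such stretches recur at rps-24 and 10.2% at rpl-7A.

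The SOX core, searched as CATTGT or CTTTGT up to 50 bp from the summit and on both strands, lay at 3 of the 14 thresholded member peaks (21.4%). The share was 20.1% of the 646 other nuclear thresholded peaks and 16.5% of the 7730 nuclear ranked peaks with an IDR above 1%. All 3, at rpl-15, rpl-12 and rps-15, hold CATTGT. The octamer ATGCAAAT or ATGCTAAT, a sequence that POU factors bind, lay at 0 of the 14, against 2.17% of the other thresholded peaks, and CTGCGTC at 0, against 8.36%. The member peaks thus held the core about as often as other peaks did. In the 500 bp upstream of the 5′ end the core was present at 32.1% of members, against 46.8% of all genes. The median GC content around the summit was 49.5% in the member peaks and in the other thresholded peaks, and 41.6% in ranked peaks with an IDR above 1%. In the 500 bp upstream it was 33.7% in members, against 33.8% in all genes.

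Other genes of translation were counted by name. Over all protein-coding genes 30.5% had a ranked summit and 3.55% a thresholded one. Of 6 other genes of the cytosolic ribosome, 4 (66.7%) had a ranked summit and 0 a thresholded one. Of 6 elongation factor genes 5 (83.3%) had a ranked summit, and 1, eef-1A.1, whose protein brings aminoacyl-tRNA to the ribosome, a thresholded one (16.7% of the list, signal 102.5, 420 bp upstream, with 45.6 and 66.1 in the replicates). Its summit is nearer to rfc-4. Of 35 initiation factor genes 20 (57.1%) had a ranked summit and 1 (2.86%) a thresholded one, at iff-2 (95.6, 56 bp upstream). The initiation factor share of thresholded genes is near that of all genes, and nothing is read from 0 or 1 in lists of 6.

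Of 70 genes for mitochondrial ribosomal proteins 33 (47.1%) had a ranked summit, and 3 (4.29%) a thresholded one, near the 3.55% of all genes. These lay 976 bp upstream at mrpl-23 (116.5), 1228 bp upstream at mrpl-36 (90.5) and 1033 bp upstream at mrps-28 (258.8). All are farther out than any of the 15 ribosomal protein summits, and the mrps-28 summit is nearer to Y43F8C.7 (824 bp). Of 31 aminoacyl-tRNA synthetase genes 9 (29.0%) had a ranked summit and 2 (6.45%) a thresholded one. These are ears-2 (237.8, 26 bp upstream) and fars-1, which shares the mrpl-23 peak, 1355 bp downstream of the fars-1 5′ end. Of 14 genes of the nucleolus and RNA polymerase I, 7 (50%) had a ranked summit and 1 a thresholded one, 1598 bp upstream of ncl-1 (102.3), whose protein limits the size of the nucleolus.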

How the data were processed

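The deposited files are peak lists on ce11. According to the text list that came with them, a ranked and a thresholded list were made for each replicate from its alignments and a control alignment, and others from both replicates together. The names of the aligner and caller, not given in the sources used here, could change every value. The authors' signal per peak was taken as deposited. Chromatin was sonicated, with a labelled size range of 200 to 800 bp, which limits how finely a summit is placed. Ranked lists as deposited give −log10 IDR values up to 5. Read counts are not part of the lists, so depth is unknown, nothing was corrected for it and no counting intervals are given. The thresholded lists name a further input without describing it. The series' ranked lists have 4 signal columns each without a sample's name, which were left out.

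Summits were placed on the NCBI WBcel235 sequence, the assembly of ce11, and on Ensembl release 115, with pandas 2.3.3 under Python 3.11.15. A gene had a summit where one lay within 2000 bp of any annotated 5′ end. Summits of different lists within 100 bp were paired. The assignment was tested on simulated data. With 1 group, nothing was tested: counts and medians stand beside those of all genes. Named are all members with a thresholded summit, the 6 strongest with a ranked one only, 6 without, in name order, and the neighbours and listed translation genes with a thresholded summit. Members named for a shared summit, for a summit at the edge of the window or for having none in any list were chosen after their values were seen. The members and lists were chosen with earlier results of these data known. Alternatives changed the window, the assignment, the list, the threshold, the motif window and the replicate.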

Additional observations from a re-analysis of the deposited data

How the results depend on the processing

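Of 65 alternatives, 50 left a value within the limits set (1.5 times for a count, 1 SD of the replicates for a median) and 15 moved it. Giving each summit to its nearest 5′ end left 28 of 54 ranked members and 9 of 15 thresholded members, among them 3 of 6 small subunit genes and 4 of 10 with a divergent neighbour. Keeping thresholded peaks at or above the median signal left 8 members (10.3%, against 1.72% of all genes). Of these, 5 were large and 3 small subunit genes, 4 had a divergent neighbour and 1 was a snoRNA host. An IDR of at most 5% left 21 ranked members. No share of all genes stands beside this count or the 28 under nearest assignment, so no contrast is read from either. In single replicates, thresholded members were 10 to 14, large subunit 7 to 8, small subunit 3 to 6, with a divergent neighbour 5 to 8 and snoRNA hosts 1 to 3, ranked members were 73 to 74 and the median position was -317 to -293 bp, against -288 bp. The lower counts are those of replicate 1, without replicate 2. Within 25 bp of the summit the SOX core was at 1 member instead of 3. Members stayed above all genes with a window of 500 bp (14 members, 17.9%, against 1.51% of all genes). The same held with 1000 bp (15, 19.2%, against 2.21%) and 5000 bp (18, 23.1%, against 7.01%). In proportion the contrast was smallest at 5000 bp. The causes were not tested. No paired analysis was possible because there is 1 group. The unknown depth limits every count below the threshold.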

Other observations

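Short words were also counted in the 500 bp upstream of the 5′ ends, on both strands, after the sequences at the summits had been seen, so their shares are a description. No word contains another, though CTGCGTA and CTGCGTC differ in the last letter alone. GGCCTAA was present at 23 of 78 members (29.5%), against 2.93% of all genes. It was there at 33.3% of the 15 members with a thresholded summit and at 28.6% of the others. TACGGT was present at 46.2% of members, against 13.9% of all genes, at 26.7% of those with a thresholded summit and at 50.8% of the others. CTGCGTA was present at 17.9% of members, against 2.23% of all genes, GCGCTC at 14.1%, against 8.19%, GTGTATG at 5.13%, against 3.81%, and GCGTGTTT at 5.13%, against 1.75%. These 4 were more frequent at the members with a thresholded summit than at the others. CTGCGTA stood at 40% of them and 12.7% of the others, GCGCTC at 40% and 7.94%, and GTGTATG and GCGTGTTT each at 20% and 1.59%. The words were picked at the summits of those same members. Within 50 bp of the thresholded summits at least 1 of these 6 words lay at 13 of the 14 member peaks (92.9%), against 19.3% of other nuclear thresholded peaks, a set of words picked on those same peaks.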
